A study of Mus musculus with 24 samples.

Results

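The genes described here are 44 genes of mitosis and the kinetochore, taken from a list of named genes and found in the mouse annotation among 21627 protein-coding genes. They were measured by ATAC-seq, which cuts DNA at sites open to a transposase and reports such sites as peaks. B-cell progenitors were sorted from mouse bone marrow at 3 successive stages, called pre-pro-B, then pro-B, then small pre-B, from WT mice and from Mki67-/- mice, in which the gene for Ki-67 is disrupted. Each of the 6 groups of genotype and stage held 4 libraries, 24 in all, and peaks on mm10 were called library by library. The age of the mice and the part of Mki67 that was deleted are not given in the labels. Whether libraries of a group are separate animals is not in the labels, so a p-value here speaks of library-to-library spread, and libraries of different stages may share an animal.

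Mitosis turns duplicated chromosomes into compact rods, attaches each of them to spindle fibres through the kinetochore, and divides them between the daughter cells. Cyclin B with Cdk1 starts the process, the spindle checkpoint holds it until attachment is complete, and the anaphase-promoting complex with its activator Cdc20 ends it. Pro-B cells and the large pre-B cells that follow divide, whereas small pre-B cells are known to leave the cycle and rearrange an immunoglobulin light chain gene. Many mitotic genes share a promoter design, with CCAAT boxes bound by NF-Y and a nearby element bound by MuvB complexes that repress it in resting cells.

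A window of the gene body and 10 kb on both sides was taken for each gene. Peaks within 1 kb of either gene end were counted as gene-end peaks and the others in the window as other peaks. Strength was read as a rank within a library, in which rank 1 has the highest -log10 q, so a lower rank is a stronger peak. The 40000 strongest peaks of each library were used for all ranks and for comparisons between stages, because the deposited lists differed in length. These lists held 77044 to 206148 entries per library, and the -log10 q of the peak at rank 40000 ran from 11.23 to 43.8. Merged peaks were wider in pre-pro-B libraries, at a mean of 487 to 605 bp against 344 to 428 bp in the 2 later stages. Markers of other cell types also moved with stage. The 9 T and NK cell markers had 21 to 28 peaks in their windows in pre-pro-B libraries, 10 to 13 at the pro-B stage and 7 to 11 at the small pre-B stage. The 10 early B-lineage markers had 26 to 33, 65 to 70 and 55 to 64, and Of these, Pax5, Vpreb1 and Rag2 had no gene-end peak in any pre-pro-B library, while Ebf1, Cd79a and Blnk had one in all 8. The 8 myeloid markers had 15 to 20, 10 to 13 and 13 to 16 peaks, with Mpo and Elane lacking a gene-end peak in every library and Cebpa having one in all 24. The 6 erythroid markers had 9 to 11, 8 to 12 and 8 to 12, with Gata1 lacking one in every library and Klf1 and Tfrc having one in all 24. The part of other cell types in the stage differences was not tested.

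Nearly every one of these genes had an open end at every stage and in both genotypes. A gene-end peak was present in all 24 libraries for 43 of the 44 genes, both in the deposited lists and among the 40000 strongest peaks. Over all protein-coding genes the share was 51.5% in the deposited lists and 45.3% among the 40000 strongest. The exception was Pttg1, which encodes securin, the inhibitor of separase. The median rank of the 44 gene-end peaks was 2884 to 4716 per library in pre-pro-B, 5172 to 6025 in pro-B and 5552 to 6536 in small pre-B cells. Over all 13418 genes with a gene-end peak in some library the corresponding medians were higher, 7847 to 9849, 9544 to 10951 and 9613 to 10150. Those medians include genes without a peak in the library at hand, set to rank 40001. Among genes with a peak in that library they were 6170.5 to 7605, 7733 to 8727 and 7569 to 7924.5, still above those of the 44 genes. These libraries were made from bulk cells, so fewer cells with an open site and a weaker signal per cell cannot be told apart.

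The level of the ends differed widely between genes, and their order differed between stages. Averaged over all 24 libraries, the gene-end peak of Ccna2, which encodes cyclin A2, held rank 937 ± 536 (SD), and that of Mad2l1, a checkpoint protein that restrains Cdc20, rank 1148 ± 526. Prc1, which bundles the microtubules of the central spindle, followed with 1316 ± 833, a difference from its neighbours smaller than these spreads. At the other end, apart from Pttg1, Plk1, a kinase of mitotic entry and kinetochore attachment, held rank 18032 ± 5722, and Foxm1, a transcription factor of mitotic genes, 23639 ± 5156. Within stages, Kif20a and Aurka had lower mean ranks than Ccna2 in pre-pro-B cells, at 288 ± 274 and 674 ± 517 against 783 ± 541. Aurka differed from Ccna2 there by less than these spreads, and Kif20a by less than the SD of Ccna2. In small pre-B cells Mad2l1 and Prc1 did, at 885 ± 152 and 892.5 ± 149 against 1480 ± 310.5 (SD, n = 8 each). In pre-pro-B cells Plk1 had a lower mean rank than Racgap1, at 11023 ± 2459 against 16343 ± 3047. Anln, at 11800 ± 1598, and Aurkb, at 11949 ± 1541, differed from Plk1 by less than these spreads (SD, n = 8 each). For 11 genes the strongest end peak also lay within 1 kb of an end of another gene in all 24 libraries. Ccna2 shared it with Bbs7, Aurka with Cstf1, Kif20a with Brd8, Prc1 with Rccd1 and Foxm1 with Rhno1, so a rank at these genes is not the rank of 1 promoter alone.

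**Figure D1:**
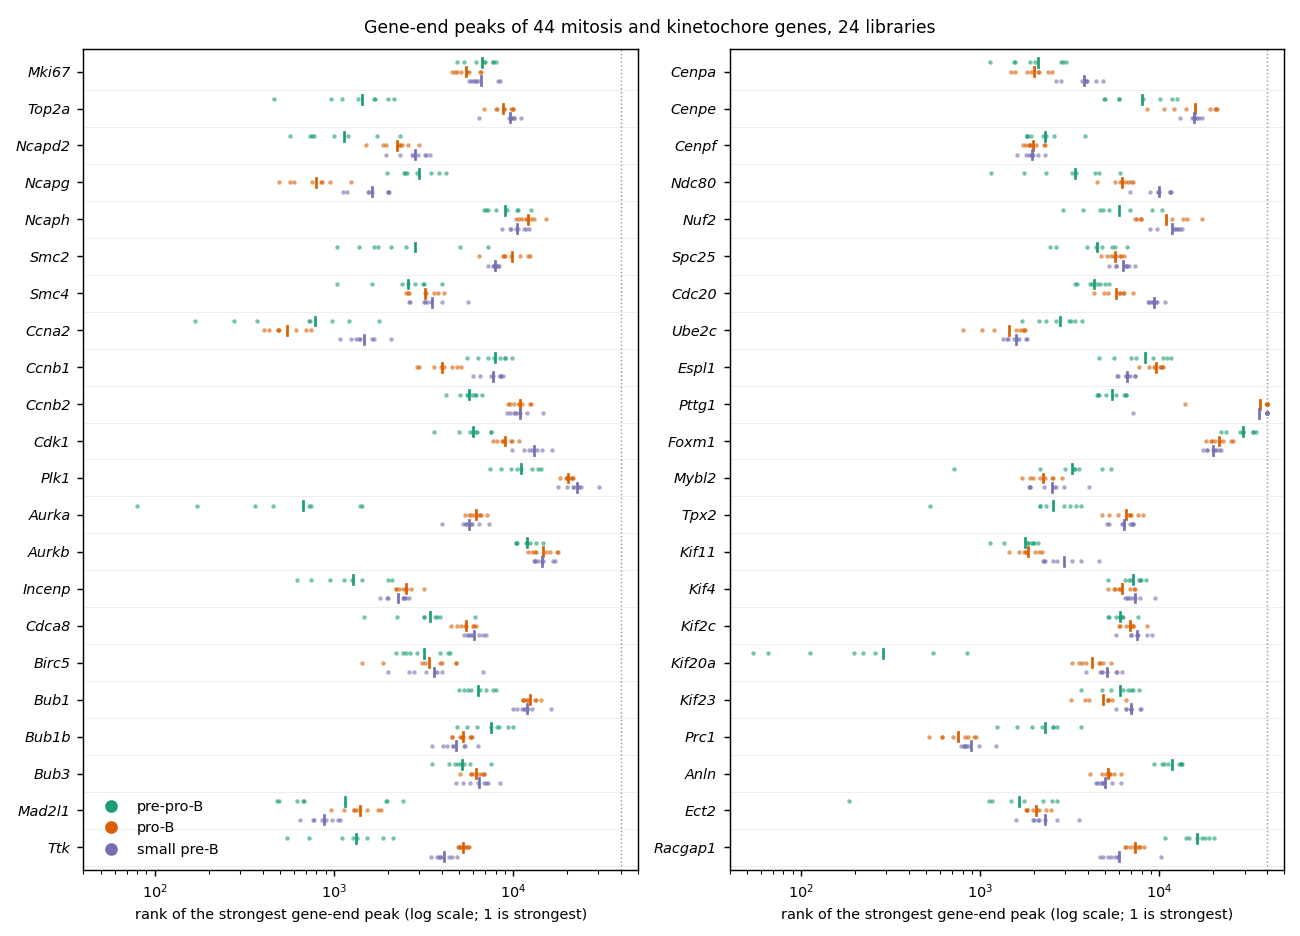
Rank of the strongest gene-end peak (log scale, 1 is strongest) for the 44 genes; each point is 1 of 24 libraries, coloured by stage, a vertical tick is the mean of the 8 libraries of a stage, and the dotted line marks rank 40001, given to a library without such a peak. Kif20a and Top2a lie far to the left in pre-pro-B libraries, Racgap1 and Anln lie to the right there, and only Pttg1 reaches the dotted line.

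The promoters at these ends shared sequence features that played no part in choosing the genes. Promoter sequences of 300 bases, from 250 before to 50 after the annotated start, were taken from RefSeq (GRCm38.p6) for 37 of the 44 genes. A peak lay on that stretch in all 24 libraries for 36 of the 37. The median summit lay between 265 bp before and 65 bp after the start for these 36 genes, and within 250 bp of it for 34. The exception was Kif2c, a microtubule depolymerase of the centromere, whose start in this table lies inside the annotated gene. No library had a peak on the Kif2c stretch, while the annotated gene end had one in all 24. The letters TTTGAA or TTCGAA, forms of the element bound by MuvB complexes, stood on either strand in 29 of the 37 promoters, or 78.4%, against 17.7% of the promoters of 17273 protein-coding genes. CCAAT stood on either strand in 28, or 75.7%, against 39.4%. Both were found in 26, or 70.3%, against 7.50% of all. These are letter matches, each motif sought by itself with overlaps allowed, and not measured binding sites. The sequences below are those of Mki67 and of the first 5 genes in alphabetical order that hold both. All 24 libraries had a peak on each of these stretches. Capitals mark these motifs on either strand, and each run reads 5′ to 3′ along the gene.
Mki67 (chr7:135716330-135716629, minus strand): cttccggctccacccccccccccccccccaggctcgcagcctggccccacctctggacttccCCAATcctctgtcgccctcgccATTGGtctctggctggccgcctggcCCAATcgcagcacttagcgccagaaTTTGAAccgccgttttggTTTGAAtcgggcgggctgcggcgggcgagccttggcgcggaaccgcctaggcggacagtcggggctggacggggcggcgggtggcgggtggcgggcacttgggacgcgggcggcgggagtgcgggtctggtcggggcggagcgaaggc
Aurka (chr2:172370521-172370820, minus strand): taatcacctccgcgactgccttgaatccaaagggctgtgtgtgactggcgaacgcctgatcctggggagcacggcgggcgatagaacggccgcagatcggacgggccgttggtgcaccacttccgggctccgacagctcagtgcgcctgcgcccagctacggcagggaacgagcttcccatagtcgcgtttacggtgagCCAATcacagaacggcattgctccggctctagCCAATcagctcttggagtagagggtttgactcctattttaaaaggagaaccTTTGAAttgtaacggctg
Bub1 (chr2:127831810-127832109, minus strand): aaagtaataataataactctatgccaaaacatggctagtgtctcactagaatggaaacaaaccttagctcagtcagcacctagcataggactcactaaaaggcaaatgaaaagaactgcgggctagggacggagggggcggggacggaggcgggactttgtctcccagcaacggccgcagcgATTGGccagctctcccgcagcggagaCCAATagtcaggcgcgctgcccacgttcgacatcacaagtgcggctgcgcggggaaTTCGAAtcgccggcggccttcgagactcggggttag
Bub1b (chr2:118597961-118598260, plus strand): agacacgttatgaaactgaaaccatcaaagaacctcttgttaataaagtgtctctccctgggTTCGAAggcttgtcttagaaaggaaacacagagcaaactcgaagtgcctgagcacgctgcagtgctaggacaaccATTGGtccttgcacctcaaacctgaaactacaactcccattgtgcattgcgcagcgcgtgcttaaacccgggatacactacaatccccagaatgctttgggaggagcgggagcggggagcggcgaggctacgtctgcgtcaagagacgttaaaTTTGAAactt
Bub3 (chr7:131560120-131560419, plus strand): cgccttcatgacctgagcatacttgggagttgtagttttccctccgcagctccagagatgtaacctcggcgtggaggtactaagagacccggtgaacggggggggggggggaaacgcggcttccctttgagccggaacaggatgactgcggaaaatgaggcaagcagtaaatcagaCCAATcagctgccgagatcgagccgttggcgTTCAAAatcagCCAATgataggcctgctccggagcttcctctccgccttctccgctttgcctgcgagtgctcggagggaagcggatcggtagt
Ccnb2 (chr9:70421505-70421804, minus strand): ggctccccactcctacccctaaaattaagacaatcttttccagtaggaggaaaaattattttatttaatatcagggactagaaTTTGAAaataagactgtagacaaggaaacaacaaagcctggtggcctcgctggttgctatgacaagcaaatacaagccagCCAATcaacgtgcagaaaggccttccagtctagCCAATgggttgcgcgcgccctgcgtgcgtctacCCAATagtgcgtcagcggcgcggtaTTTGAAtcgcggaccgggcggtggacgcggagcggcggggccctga

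The Mki67 promoter held 2 matches to TTTGAA and 3 to CCAAT. Aurka, Bub1 and Bub3 each had 2 matches to CCAAT, Ccnb2 had 3 and Bub1b 1. Bub1 held the form TTCGAA alone, and Bub1b held both forms. Birc5, Mad2l1, Mybl2, Ncaph, Nuf2 and Pttg1 held neither motif in this stretch. Their stretches nevertheless had a peak in all 24 libraries.

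Away from the ends, peaks were present in fewer of the libraries. The peaks of all libraries were joined into 227 regions across the 44 windows. Of 57 regions at the ends of these genes, 44 had a peak in all 24 deposited lists, as did 17 of 29 regions at ends of neighbouring genes and 14 of 69 in the flanks. Of 72 regions inside the gene bodies only 3 did, or 4.17%. Over all 227 regions the share was 34.4%, against 16.8% of the 159336 regions of the whole genome, gene ends included in both. Of these 3, 2 lay in Bub1b, which encodes the checkpoint kinase BubR1, and 1 in Kif11, a motor that pushes spindle poles apart.

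By role, the number of other peaks per library in the deposited lists ranged widely. Among genes of the chromosome surface and condensation, Smc4, a condensin ATPase, had 4.62 ± 1.01 (SD, n = 24) and its partner Smc2 0.333 ± 0.482. Among cyclins and kinases, Ccnb2, which encodes cyclin B2, had 1.54 ± 0.588 and Cdk1 0.0417 ± 0.204. In the chromosomal passenger complex, Aurkb, its kinase, had 8.21 ± 0.932 and Incenp, its scaffold, 0.333 ± 0.482. The Aurkb window also takes in ends of Ctc1 and Borcs6. Among checkpoint genes Bub1b had 5.88 ± 0.741, while Mad2l1 had none in any library. At the kinetochore, 2 subunits of the same microtubule-binding complex differed, with 2.79 ± 0.977 peaks at Ndc80 and 0.125 ± 0.338 at Nuf2. Of the genes of anaphase entry, Espl1, which encodes separase, had 4.54 ± 0.932 and Ube2c, a ubiquitin-conjugating enzyme of the anaphase-promoting complex, none in any library. Foxm1 had 3.33 ± 0.868 and Mybl2, its partner in MuvB-bound transcription, 1.71 ± 0.908. Of the spindle motors, Kif11 had 3.58 ± 0.654 and Kif4, a chromosome-bound kinesin, 0.333 ± 0.482. Of the genes of cytokinesis, Anln, which encodes the actin-binding scaffold anillin, had 3.96 ± 1.601 and Ect2, the exchange factor that activates RhoA, 0.5 ± 0.722.

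**Figure D2:**
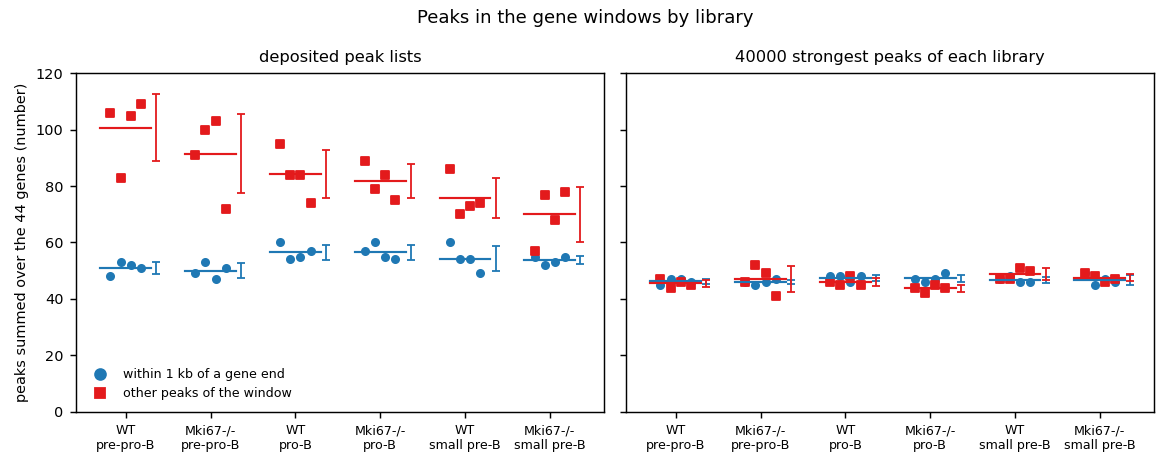
Peaks summed over the windows of the 44 genes in each library, for the deposited lists and for the 40000 strongest peaks; circles are gene-end peaks, squares are other peaks, lines are the means of 4 libraries and error bars their SD. In the deposited lists other peaks run from 57 to 109 per library, and at equal list length they run from 41 to 52.

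Summed over the genes, the number of peaks hardly moved between stages at equal list length. Gene-end peaks numbered 45 to 47 in pre-pro-B, 46 to 49 in pro-B and 45 to 49 in small pre-B libraries. Other peaks numbered 41 to 52, 42 to 48 and 46 to 51. The ranges of the stages overlap in both cases. In the deposited lists, where the number of entries differs with stage, other peaks went from 96.1 ± 13.01 in pre-pro-B to 83.0 ± 7.01 at the pro-B stage and 72.9 ± 8.46 at the small pre-B stage (SD, n = 8 each); these sums were not tested.

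The comparison of pre-pro-B with pro-B cells asks how these genes change as cells commit to the B lineage. It moved the ends of most of them, with more becoming weaker than stronger. Of the 44 genes, 20 had a weaker end in pro-B cells and 11 a stronger one by the exact permutation test with Benjamini-Hochberg adjustment over 12519 genes. Over all those genes 41.1% were weaker and 31.8% stronger, so the members' shares of 45.5% and 25.0% lie near the background. The median change of rank was 1079 for the 44 genes and 382 for all genes tested. By role, 4 chromosome surface and condensation genes had a weaker and 2 a stronger end, of 7. Of 6 cyclins and kinases 4 were weaker and 1 stronger, and of 4 passenger complex genes 3 were weaker and 0 stronger. Of 5 checkpoint genes 2 were weaker and 1 stronger, of 6 kinetochore genes 3 and 0, and of 4 anaphase genes 2 and 1. Of 4 spindle motor and assembly genes 1 was weaker and 1 stronger, and of 2 mitotic transcription factors 0 and 1. Of 6 midzone and cytokinesis genes 1 was weaker and 4 stronger. Whether roles differ was not tested. Among the 3 weaker kinetochore genes were Nuf2 and Cenpe, whose genotypes did not overlap at the pro-B stage. Their WT pro-B ranks were 7352 to 7958 and 8576 to 14151. These overlap the pre-pro-B ranges of both genotypes, 2923 to 10416 and 4904 to 12551. Their Mki67-/- pro-B ranks were higher, at 11804 to 17375 and 19102 to 20910.

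Top2a, whose end weakened, encodes topoisomerase II alpha, which untangles sister chromatids. Its end held ranks from 466 to 2181 with a median of 1521 in pre-pro-B libraries and from 6857 to 10043 with a median of 8882 in pro-B libraries. No pro-B library reached the rank of any pre-pro-B library. The mean moved from 1436 ± 574 to 8817 ± 1114 (SD, n = 8 each; adjusted p = 0.000954, exact permutation test). Kif20a, a kinesin that carries the passenger complex to the midzone, had the strongest end of all 44 genes in pre-pro-B libraries, with ranks from 54 to 848 and a median of 211. In pro-B libraries it held ranks from 3282 to 5404, again with no overlap (adjusted p = 0.000954, exact permutation test). This is the lowest adjusted p of the step, and 5357 of the 12519 genes tested reached it, so it does not mark out single genes.

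The end of Bub1, a checkpoint kinase of the kinetochore, moved from ranks of 5022 to 8004 (median 6185) to ranks of 11429 to 14289 (median 12053). That of Plk1 moved from 7454 to 14343 (median 10801) to 18287 to 21499 (median 20258). In both genes the stages did not overlap, and the adjusted p was 0.000954 for each by the exact permutation test. Ccnb1, the cyclin that partners Cdk1, went the other way.

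Pttg1 had the largest change by the gene-end rule, and that change depends on which start is used. The nearer annotated end lies more than 1 kb from the start in the promoter table. By the gene-end rule all 8 pre-pro-B libraries held ranks from 4471 to 6556, whereas in pro-B libraries the lowest rank was 13943 and the median 40001, the value for no peak. At the table's start every library had a peak. Ranks there were 5040, 6546, 6556 and 4471 in WT and 6361, 4550, 5723 and 4621 in Mki67-/- pre-pro-B libraries. They were 10070, 9863, 11940 and 10454 in WT and 12487, 12297, 10851 and 13943 in Mki67-/- pro-B libraries. All pro-B ranks lay above all pre-pro-B ranks, and the mean change was 6005 instead of 31260 (adjusted p = 0.000958, exact permutation test; this start was chosen after seeing the data). Pttg1 also counts among the genes with more other peaks in pro-B cells, a difference that was 0 when ends were taken as 2 kb.

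Of the 11 ends that became stronger, 4 were those of the midzone and cytokinesis genes Racgap1, Anln, Prc1 and Kif23. Racgap1 encodes a subunit of centralspindlin, which signals from the midzone to the cleavage furrow. Its end held ranks from 10782 to 20315 (median 16846) in pre-pro-B libraries and from 6439 to 8278 (median 7381) in pro-B libraries. The end of Anln moved from 9340 to 13435 (median 12078) to 4120 to 6088 (median 5243). In both genes every pro-B library had a stronger end than every pre-pro-B library (adjusted p = 0.000954 each, exact permutation test). Ccnb1 moved from 5509 to 9893 (median 8133) to 2916 to 5129 (median 4052), and Ncapg, a condensin subunit, from 1979 to 4224 (median 2739) to 493 to 1255 (median 801). These too did not overlap, with the same adjusted p of 0.000954 by the exact permutation test.

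Mki67 itself had a peak over its start in every library. In pre-pro-B cells the ranks were 8025, 4840, 7765 and 7000 in WT and 6896, 7738, 5299 and 6255 in Mki67-/- libraries. In pro-B cells they were 6558, 4543, 4770 and 4866 in WT and 5505, 5143, 5702 and 6637 in Mki67-/- libraries. The ranges of the stages overlap, and the mean moved from 6727 ± 1178 to 5466 ± 795 (SD, n = 8 each; adjusted p = 0.0457, exact permutation test). That call is fragile. It was lost when any of 11 of the 16 libraries was left out, with adjusted p-values up to 0.0844, and held without WT pre-pro-B 2, Mki67-/- pre-pro-B 3 or 4, WT pro-B 1 or Mki67-/- pro-B 4. The calls of Kif4 and Kif23 were likewise lost without 10 and 3 of the 16 libraries. The peak over the Mki67 start does not check the genotype, since all 12 Mki67-/- libraries had it.

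Among the 40000 strongest peaks, other peaks were gained in some windows and lost in others between pre-pro-B and pro-B cells. Of 27 genes tested, 8 had more and 7 fewer in pro-B cells, beside 26.0% with more and 25.0% with fewer over 13669 genes. The gains included Aurkb, which had 3 or 4 other peaks in pre-pro-B and 7 or 8 in pro-B libraries, and Smc4, which had 0 or 1 and then 2 to 5. Plk1 had no other peak in any pre-pro-B library and 1 or 2 in every pro-B library. Ncaph, a condensin subunit, had 1 in each pre-pro-B library and 2 to 4 in pro-B libraries. The losses included Racgap1, which went from 3 to 5 peaks to 0 in every pro-B library, and Espl1, which went from 4 or 5 to 2 or 3. Kif23, the kinesin of centralspindlin, went from 4 or 5 to 2, and Anln from 2 or 3 to 1. In each of these 8 genes the stages did not overlap, and each had an adjusted p of 0.00145 by the exact permutation test. At Racgap1 and Anln the gene end and the rest of the window thus moved in opposite directions. The end was stronger, and fewer of the 40000 strongest peaks lay elsewhere in the window. In the deposited lists Racgap1 had other peaks in 22 of 24 libraries. Anln and Smc4 had at least 2 there and Ncaph at least 3 in every library. At these genes a gain or loss can be one of strength and not of presence. Plk1 had no other peak in any deposited pre-pro-B list. The gain at Ncaph turned to a difference of -0.125 peaks among the 20000 strongest.

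Single regions were also gained and lost. Among 41 regions of these windows that varied between the 2 stages, 13 were gained and 17 lost, beside 31.2% and 35.0% of 40473 regions over the genome. Of the 14 tested regions inside gene bodies, 3 were gained and 8 lost, with no share for gene bodies over the genome to set beside them. A region in the flank of Aurkb (chr11:69041536-69041918) had a peak among the 40000 strongest in none of the 8 pre-pro-B libraries and in all 16 later ones. In the deposited lists 1 WT and 1 Mki67-/- pre-pro-B library had a peak there. A region inside Bub1b (chr2:118638672-118639172) had the same pattern, as did 1 at the end of Tex52 in the Foxm1 window (chr6:128383551-128384284) and 1 in the flank of Kif20a on chromosome 18. Each had an adjusted p of 0.00104 by the exact permutation test.

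In the other direction, a region inside Kif23 (chr9:61931610-61932634) had a peak in all 8 pre-pro-B libraries and in none of the 16 later ones. A region inside Espl1 (chr15:102311387-102312060) and 1 in the flank of Bub1b (chr2:118590682-118591611) did the same. A second region inside Bub1b (chr2:118620412-118621122) was present in all 8 pre-pro-B libraries and absent from all 8 pro-B libraries. Among the 40000 strongest it was present again in 7 of 8 small pre-B libraries. Each of these 4 also had an adjusted p of 0.00104 by the exact permutation test. Bub1b thus held regions of opposite behaviour within 1 window, beside 1 body region with a peak among the 40000 strongest in every library (chr2:118637964-118638605).

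**Figure D3:**
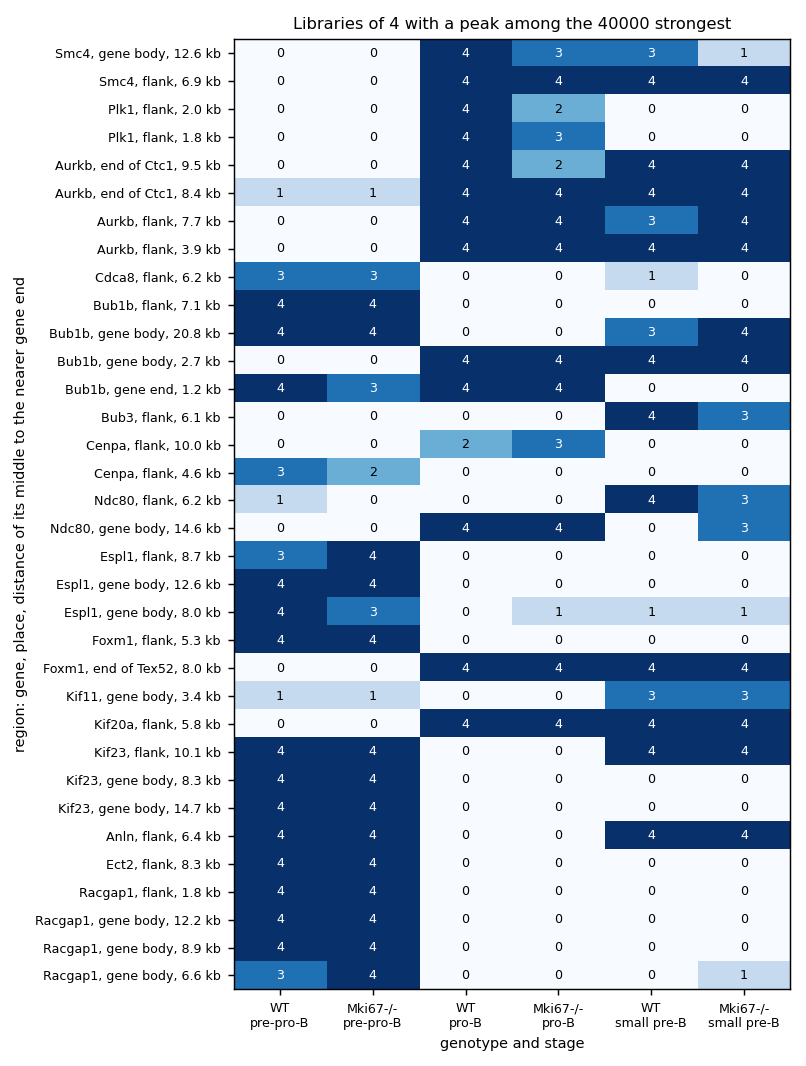
Number of libraries, of 4 in each group, with a peak among the 40000 strongest, for the 34 regions in the gene windows that passed the test in either stage step; the labels give the gene, the place of the region and the distance from its middle to the nearer gene end. Regions inside Racgap1 and Kif23 are filled mainly in pre-pro-B columns, those of Aurkb and Kif20a in the later columns, and the 2 genotypes of a stage differ by 3 libraries in 1 region, inside Ndc80, in small pre-B cells.

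The comparison of pro-B with small pre-B cells sets a stage known for division beside one known to have left the cycle. More of the ends weakened than strengthened. Of 43 genes tested, 11 had a weaker end in small pre-B cells and 4 a stronger one by the exact permutation test, beside 22.5% weaker and 29.9% stronger over 12145 genes. The median change of rank was 255.5 for these genes and -151 for all genes tested. The share of weaker ends, 25.6%, lay near the background and the share of stronger ends, 9.30%, below it; whether the list differs from other genes was not tested. By role, 3 of 6 cyclins and kinases weakened, as did 2 of 4 spindle motor and assembly genes. So did 2 of 6 kinetochore genes and 2 of 6 midzone and cytokinesis genes, and none of these roles had a stronger end. Of 7 chromosome surface and condensation genes 1 was weaker and 1 stronger, and of 3 anaphase genes 1 and 1. Of 5 checkpoint genes 0 were weaker and 2 stronger. None of 4 passenger complex genes and 2 mitotic transcription factors was called. Whether roles differ was not tested. Both steps use the same pro-B libraries, so they are not independent of each other.

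Ccnb1, whose end had strengthened before, held ranks from 2916 to 5129 (median 4052) in pro-B and from 6003 to 8770 (median 8081) in small pre-B libraries. Cdc20 went from 4350 to 7132 (median 5980) to 8698 to 10797 (median 9298). Cenpa, the histone H3 variant that marks centromeres, went from 1498 to 2523 (median 2011) to 2671 to 4880 (median 3917). In all 3 genes every small pre-B library had a weaker end than every pro-B library. The changes of mean rank were 3741, 3634 and 1794 with an adjusted p of 0.00163 each by the exact permutation test. Kif23 weakened from 4836 ± 1063 to 6942 ± 710 (SD, n = 8 each; adjusted p = 0.00163, exact permutation test), with overlapping ranges.

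The ends that strengthened were those of Espl1, Ttk, Mad2l1 and Smc2. Espl1 went from ranks of 7729 to 10487 (median 9739) to 5842 to 7346 (median 6612). Ttk, the checkpoint kinase Mps1, went from 4910 to 5704 (median 5258) to 3475 to 4872 (median 3976). Neither overlapped between the stages, with an adjusted p of 0.00163 each by the exact permutation test. Ttk remained far from its ranks of 549 to 2148 in pre-pro-B libraries. Mad2l1 moved from 1396 ± 299 to 885 ± 152 and Smc2 from 9815 ± 1963 to 7917 ± 367 (SD, n = 8 each), both with overlapping ranges (adjusted p = 0.00491 and 0.0217, exact permutation test). The pro-B mean of Smc2 was 8326 ± 1228 in WT and 11304 ± 1252 in Mki67-/- libraries (SD, n = 4 each). Small pre-B libraries of both genotypes held 7217 to 8349, so the Smc2 change was mainly that of Mki67-/- libraries. Mki67 held ranks of 6130, 6339, 6244 and 8271 in WT and 8471, 5693, 5954 and 5794 in Mki67-/- small pre-B libraries. These overlap the pro-B ranks and did not pass the test.

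Few other peaks changed in this step among the 40000 strongest. Of 24 genes tested, 2 gained and 1 lost, beside 14.2% and 14.7% over 12701 genes. Anln had 1 other peak in every pro-B library and 2 in every small pre-B library. Plk1 had 1 or 2 in pro-B libraries and none in any small pre-B library. Each had an adjusted p of 0.00390 by the exact permutation test. Bub3, a checkpoint protein that binds Bub1 and BubR1, had none in pro-B libraries and 1 in 7 of 8 small pre-B libraries (adjusted p = 0.0112, exact permutation test). In the deposited lists the Bub3 difference had the opposite sign, at -0.375 peaks.

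Of 23 regions tested in this step, 6 were gained and 4 lost, beside 17.7% and 23.1% of 27453 regions. A flank region of Kif23 (chr9:61906824-61907470) and 1 of Anln (chr9:22324591-22325115) were present in all pre-pro-B and all small pre-B libraries and in no pro-B library among the 40000 strongest. In the deposited lists both also had a peak in at least 3 of 4 libraries of each pro-B group, so the difference is one of strength and not of presence. The Bub1b body region that had been lost returned, and a flank region of Ndc80 (chr17:71489715-71490027) was gained in 7 of 8 small pre-B libraries. A region at the far end of Bub1b (chr2:118642395-118643266) was lost from the 40000 strongest in all 8 small pre-B libraries. In the deposited lists 3 of 4 Mki67-/- small pre-B libraries still had a peak there. The 2 flank regions of Plk1, at chr7:122157298-122157604 and chr7:122171463-122171932, were seen among the 40000 strongest only in pro-B libraries, in 6 and 7 of 8.

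The comparison of Mki67-/- with WT cells asks whether loss of Ki-67 alters these genes, whose products act beside Ki-67 at mitosis. Almost none passed the test. Across the 3 stages, with 12 libraries of each genotype, none of 40 genes tested passed for other peaks, beside 0% of 16364 genes, by the exact permutation test with Benjamini-Hochberg adjustment. At an unadjusted p under 0.05, 5 of the 40 were lower in Mki67-/- cells and none higher, beside 640 (3.91%) lower and 174 (1.06%) higher of all genes. Of 101 regions tested none passed, beside 0% of 91188 regions. At an unadjusted p under 0.05, 1 of the 101 was higher in Mki67-/- cells, beside 0.875% higher and 1.29% lower of all regions. Summed over the genes, deposited peaks were 142 ± 13.5 in Mki67-/- and 152 ± 10.8 in WT pre-pro-B libraries. At the pro-B stage they were 138 ± 6.99 and 141 ± 10.1, and at the small pre-B stage 124 ± 9.29 and 130 ± 10.8 (SD, n = 4 each). In each stage the difference was smaller than the larger SD and the 2 groups overlap. The deposited lists themselves were shorter in Mki67-/- than in WT pre-pro-B libraries, at a mean of 158622 against 186035 entries. With the 40000 strongest peaks the pre-pro-B difference was 1.25 in place of -10.25. In small pre-B cells it was 3 in place of -6.25 without replicate 1 of either genotype.

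Of the gene-end ranks 1 of 44 passed, beside 1.27% of 12713 genes with a lower rank and 0.653% with a higher rank in Mki67-/- cells. The gene was Kif23, with a stronger end. In pre-pro-B cells its ranks were 7707, 7170, 6296 and 6672 in WT and 6945, 4789, 3640 and 5390 in Mki67-/- libraries. In pro-B cells they were 5181, 5193, 5169 and 6565 in WT and 3833, 5452, 3228 and 4069 in Mki67-/- libraries. At the small pre-B stage they were 6921, 6975, 7946 and 7867 in WT and 6941, 5775, 6561 and 6547 in Mki67-/- libraries. The mean was lower in Mki67-/- cells at each stage, and in each stage the 2 genotypes overlap by 1 library.

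Over all stages the Kif23 mean was 6639 ± 1015 in WT and 5264 ± 1340 in Mki67-/- libraries (SD, n = 12 each; adjusted p = 0.0383, exact permutation test). The call did not hold when 14 of the 24 libraries were left out 1 at a time, with adjusted p-values up to 0.0623 by the exact permutation test. Without Mki67-/- pre-pro-B 4, WT small pre-B 1 and Mki67-/- small pre-B 1 together it was 0.0718 by the same exact test. The 10 libraries that could be left out with the call kept were WT pre-pro-B 2, 3 and 4, Mki67-/- pre-pro-B 1, 2 and 3, WT pro-B 1, Mki67-/- pro-B 2, WT small pre-B 2 and Mki67-/- small pre-B 1. Kif20a came next, with ranks lower by 750 in Mki67-/- cells and an adjusted p of 0.0592 by the exact permutation test. The median difference over the 44 genes was -149 and over all genes tested 64.7.

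Within a stage, 4 libraries against 4 cannot give a p below 0.0286, so genes are described by whether the 2 genotypes overlap. In pre-pro-B cells the genotypes did not overlap at 1 of 38 genes for other peaks, beside 0.573% of all genes, and at no region of 175, beside 0.250%. The gene was Foxm1, with 4 other peaks in each WT and 3 in each Mki67-/- deposited list. Among the 40000 strongest peaks all 8 libraries had 2, so at equal list length there was no difference. For gene-end rank 1 gene was weaker in Mki67-/- cells, beside 1.23%, and 1 stronger, beside 1.71%. Top2a was the weaker one, with ranks of 466, 1356, 966 and 1111 in WT and 2181, 2018, 1685 and 1708 in Mki67-/- libraries. Prc1 was the stronger one, with 2541, 2556, 3656 and 2674 in WT and 1238, 1949, 1607 and 2215 in Mki67-/- libraries.

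In pro-B cells the genotypes did not overlap at more ends, among these genes and among all. Of the 44 ends, 4 were weaker in Mki67-/- cells, beside 13.3% of all genes, and 2 stronger, beside 5.71%. Nuf2 held ranks of 7352, 7538, 7958 and 7924 in WT and 13500, 17375, 14356 and 11804 in Mki67-/- libraries. Cenpe, the kinesin that carries chromosomes to the metaphase plate, held 14151, 8576, 10595 and 12164 in WT and 20910, 19102, 20438 and 20821 in Mki67-/- libraries. The mean ranks were 7693 ± 297 against 14259 ± 2332 for Nuf2 and 11372 ± 2364 against 20318 ± 836 for Cenpe (SD, n = 4 each). The 2 genotypes of these genes overlap in the other 2 stages, and across stages neither passed the test, with adjusted p-values of 0.266 and 0.222 by the exact permutation test. Whether the genotype effect differs between stages was not tested.

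The other ends without overlap in pro-B cells were those of Smc2, Birc5, Kif20a and Kif4. Smc2 had 8943, 6490, 8811 and 9060 in WT and 12153, 10893, 12448 and 9722 in Mki67-/- libraries. Birc5, which encodes survivin of the passenger complex, had 1885, 1445, 3238 and 3112 in WT and 3927, 4795, 4037 and 4813 in Mki67-/- libraries. Stronger ends in Mki67-/- cells were those of Kif20a and of Kif4. Kif20a had 4589, 5404, 4851 and 4691 in WT and 3894, 3696, 3282 and 3555 in Mki67-/- libraries. Kif4 had 7283, 7298, 6839 and 6075 in WT and 5651, 5961, 5582 and 5211 in Mki67-/- libraries. No gene of 36 was without overlap for other peaks, beside 1.28%. Of 148 regions 1 was, beside 0.598%, a region inside Anln (chr9:22372863-22373099) with a peak in all 4 WT and no Mki67-/- pro-B library. It did not reach the 40000 strongest in any library.

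In small pre-B cells 3 of the 44 ends were stronger in Mki67-/- cells without overlap, beside 5.16% of all genes, and none was weaker, beside 4.27%. Ube2c had ranks of 1809, 1609, 1658 and 1825 in WT and 1417, 1434, 1540 and 1336 in Mki67-/- libraries. Plk1 had 23452, 30071, 24104 and 23032 in WT and 17772, 20039, 21772 and 21568 in Mki67-/- libraries. Kif20a again had the stronger end in Mki67-/- cells, with 5115, 5763, 6176 and 5784 in WT and 3895, 4686, 4806 and 4800 in Mki67-/- libraries. In pre-pro-B cells its order was not the same, since the 2 genotypes overlap there and the WT mean is the lower one, as the plot by genotype shows. No gene of 32 was without overlap for other peaks, beside 1.29%.

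**Figure D4:**
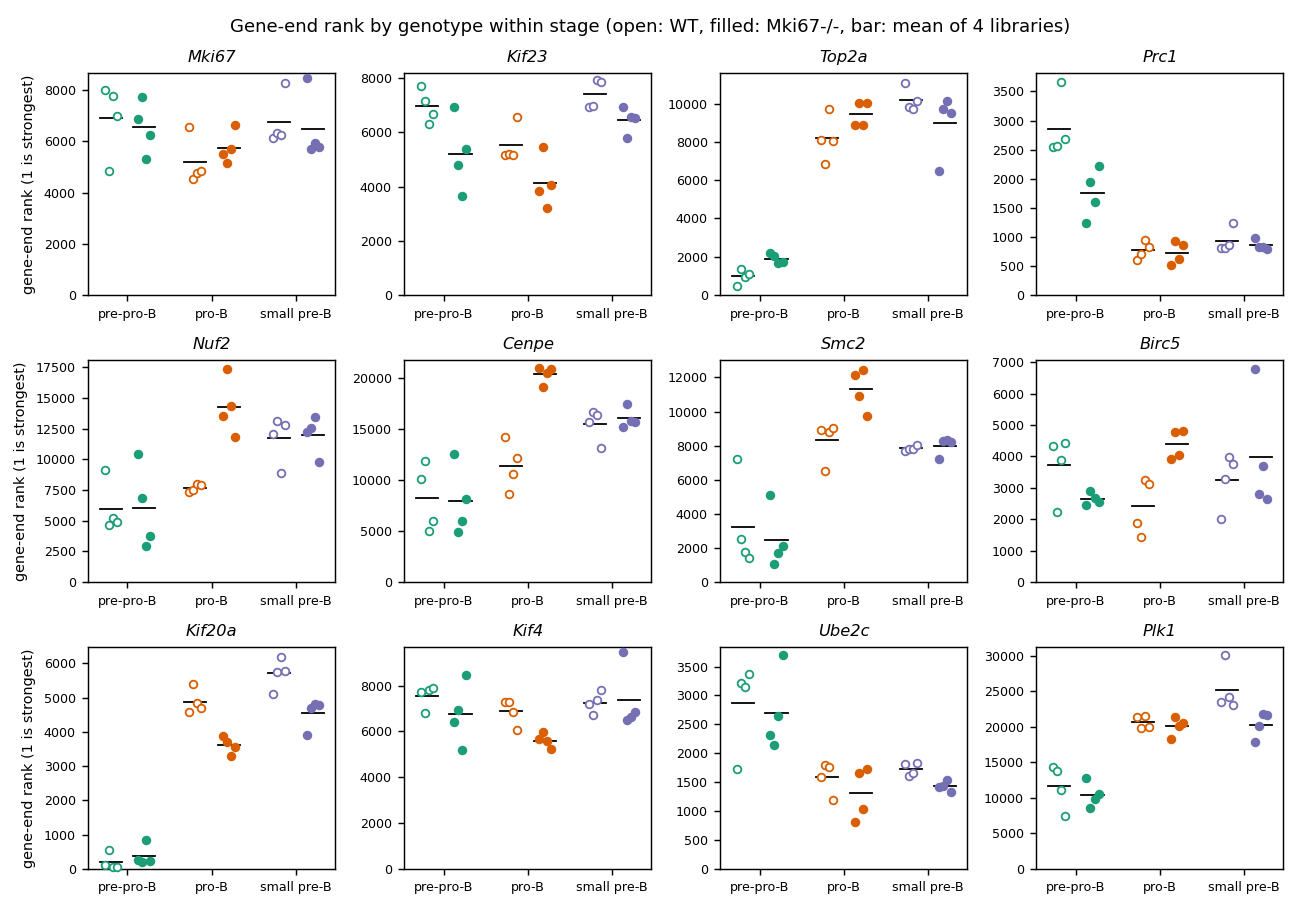
Gene-end rank (1 is strongest) by stage and genotype for Mki67, Kif23 and the genes whose genotypes did not overlap in some stage; open circles are WT and filled circles Mki67-/- libraries, 4 each, and bars are means. Nuf2 and Cenpe are apart in pro-B cells alone, and Kif20a in both later stages.

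A single region, inside Ndc80, separated the genotypes in small pre-B cells, out of 143 regions tested and beside 0.822% of all regions. Ndc80 encodes the namesake subunit of the complex that binds microtubules at the kinetochore. The region at chr17:71511956-71512557 had no peak in any pre-pro-B library of either genotype and a peak in all 8 pro-B libraries. In small pre-B cells it had a peak in none of the 4 WT and all 4 Mki67-/- deposited lists, and in 3 of those 4 among the 40000 strongest. The genotypes thus did not differ in pre-pro-B or pro-B cells. Across stages the adjusted p of this region was 1 by the exact permutation test, and its gene-end rank gave no call by genotype.

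A list of other genes of mitosis was counted in the same way. Of 76 further mitosis genes, 74 had a gene-end rank that could be tested. Between pre-pro-B and pro-B cells 42 of them weakened and 16 strengthened, with a median change of 955, and in the step from pro-B onward 15 weakened and 20 strengthened, with a median of -43.5. Over all genes 41.1% weakened and 31.8% strengthened in the first step, and 22.5% and 29.9% in the second, beside 56.8% and 21.6%, then 20.3% and 27.0%, of the 74. Zwilch, a kinetochore protein that recruits dynein, went from ranks of 4081 to 11632 (median 5726) to 19573 to 24503 (median 21131) in the first step. Cenpw, a centromere protein, went the other way, from 6906 to 13021 (median 8046) to 2444 to 4645 (median 3967). Of 11 DREAM and MuvB genes, which encode the repressor and activator complexes of the mitotic promoters, 3 weakened and 7 strengthened in the first step, with a median of -910. In the second step 3 weakened and 2 strengthened, and with 11 genes these counts are only set beside the same shares over all genes.

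By genotype 1 of the 74 further genes passed, with a lower rank in Mki67-/- cells, beside 1.27% of all genes, so the count lies at the background. The gene was Hjurp, the chaperone that loads Cenpa. It held ranks of 1219, 458, 1123 and 472 in WT and 309, 249, 256 and 269 in Mki67-/- pro-B libraries. At the small pre-B stage Hjurp held 2091, 2682, 2341 and 2048 in WT and 1515, 1334, 1410 and 1187 in Mki67-/- libraries, without overlap in either stage. In pre-pro-B cells the ranks of 16 to 51 in WT and 17 to 58 in Mki67-/- libraries overlap. Over the 3 stages the adjusted p was 0.0320 by the exact permutation test (n = 12 each). Of the DREAM and MuvB genes 1 of 11 had a stronger end in Mki67-/- cells, beside the same 1.27%.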

How the data were processed

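ATAC-seq peak lists of 24 libraries, 4 in each of 6 groups of genotype and stage, were used. Per the submitters' processing notes reads were trimmed with Trimmomatic, peaks were called with MACS2 and the build was mm10, and deepTools, DiffBind and DESeq2 are also named. The aligner and the versions are not given in the sources used here. The authors deposited for each peak a fold enrichment, a ratio over background, a -log10 p and a -log10 q-value. The lowest deposited -log10 q is 2, a q of 0.01. The authors' lists also hold peak positions and summit offsets. Lists were called per library, and read totals were not analysed here.

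Overlapping entries on chromosomes 1 to 19 and X were merged and ranked by -log10 q and then by fold enrichment, and the rank is a description within a library. The 40000 strongest peaks served for ranks and stage comparisons, and the deposited lists for peak counts by genotype. A library without a gene-end peak got rank 40001. Coordinates of genes came from the RefSeq table of the GRCm38.p6 assembly. Genes with a peak in fewer than 4 libraries of a comparison were not tested. Tests were 2-sided exact permutation tests, of genotype within stage (12 against 12) and of stage within genotype (8 against 8), with Benjamini-Hochberg adjustment over all genes or regions and a threshold of 0.05. The smallest p-values these permutations can give are 5.83e-06 and 0.000408. In the first stage step the smallest p was reached by 5357 of 12519 genes for gene-end rank. For other peaks 3846 of 13669 genes reached it, and 15886 of 40473 regions did. In the second step these counts were 3044 of 12145, 1330 of 12701 and 4484 of 27453.

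The members and lists were chosen with earlier results of these data known. Named were Mki67, at most 4 members per direction, measure and comparison in order of p, at most 6 members per measure without overlap in a stage, the members of each role with the most and fewest other peaks, and at most 3 further mitosis genes per direction. Ccna2, given for its level, was chosen after its values were seen. Alternatives were the 20000 strongest peaks, a -log10 q of at least 10, the deposited lists, other windows and gene ends, the replicate number as a block and leaving out libraries. The gene starts of the promoter table and ranking by summit were added after seeing the data. The tests were tested on simulated data. Python 3.11.15, numpy 2.4.6, pandas 2.3.3, numba 0.67.0, scipy 1.17.1 and matplotlib 3.10.9 were used.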

Additional observations from a re-analysis of the deposited data

Results flagged for a closer look

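In 102 groups of 4 libraries, 17 held 1 library far from the other 3. Chance flags about 1 in 20 groups, or 5.1 of them, and the groups are not independent of each other. No result had genotypes moving in opposite directions in 2 stages with every library.

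For Mki67 the gene-end rank was 6558 in WT pro-B replicate 1 against 4543 to 4866 in the others, 8271 in WT small pre-B replicate 4 against 6130 to 6339, and 8471 in Mki67-/- small pre-B replicate 1 against 5693 to 5954. Replicate 1 of Mki67-/- small pre-B, the library with the shortest list, also stood apart at Smc2 (7217 against 8187 to 8349), Kif20a (3895 against 4686 to 4806) and Kif4 (9474 against 6478 to 6844). Kif20a was apart in pre-pro-B cells as well, with 544 in WT replicate 2 against 54 to 112 and 848 in Mki67-/- replicate 3 against 199 to 261.

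Kif23 had rank 6565 in WT pro-B replicate 4 against 5169 to 5193. Prc1 had 3656 in WT pre-pro-B replicate 3 against 2541 to 2674 and 1230 in WT small pre-B replicate 4 against 813 to 859. Nuf2 had 9139 and Ube2c 1723 in WT pre-pro-B replicate 1, against 4659 to 5218 and 3149 to 3372. Smc2 had 6490 in WT pro-B replicate 2 against 8811 to 9060. Plk1 had 30071 in WT small pre-B replicate 2 against 23032 to 24104. Summed over the 44 genes, other peaks in the deposited lists numbered 83 in WT pre-pro-B replicate 2 against 105 to 109. Gene-end peaks among the 40000 strongest numbered 46 in WT pro-B replicate 3 against 48 in each of the others.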

How the results depend on the processing

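Of the values of single genes and regions under the alternatives, 1960 kept direction and call (1265 of them with 1 library left out, and 81 with a -log10 q of at least 10, which cannot change ranked lists whose weakest peak has 11.23), 91 kept direction and lost the call and 2 changed sign: Ncaph other peaks in the step to pro-B cells (-0.125 with the 20000 strongest) and Bub3 other peaks from pro-B to small pre-B cells (-0.375 in the deposited lists). Genes and regions that could no longer be tested under an alternative are left out of these counts, so they understate the calls that were lost. For other peaks with the gene body alone only 6 values were scored, all keeping the call. With a 5 kb window 9 kept it and 4 lost it. In the first step 15 genes were called for other peaks. That count became 8 with the 20000 strongest, 6 with the gene body alone and 8 with a 5 kb window. The 30 regions became 13 with the 20000 strongest and 47 in the deposited lists. For the second step the 3 genes became 5 with the 20000 strongest and 7 in the deposited lists, and the 10 regions became 6 and 17. The summed peaks differed between stages by -0.125 in the first step, -7.125 in the deposited lists and -3 with the gene body alone, and by 2.625 in the second, 0.375 with the 20000 strongest, -12.62 in the deposited lists and -0.25 with a 5 kb window. The cause was not tested.

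Correlations of same-numbered libraries ran from -0.366 to 0.133 between genotypes and from -0.153 to 0.197 between stages. No differently numbered pairs were set beside these, so they cannot show whether libraries are paired. With the replicate number as a block, the count of genes called by genotype for gene-end rank went from 1 to 0, with Kif23 at an adjusted p of 0.124, and in the second step the counts for other peaks and regions went from 3 to 0 and from 10 to 3. In the stage steps the smallest p of this blocked permutation test is 0.00781, against 0.000408 in the main permutation test. With that limit, the lower counts cannot show whether the calls depend on pairing. The alternatives with WT or Mki67-/- libraries alone leave 4 against 4 and give no call.

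Counts without genotype overlap were small and moved easily. In pre-pro-B cells the count for other peaks went from 1 to 0 with the 40000 strongest, the gene body alone or a 5 kb window, and that for regions from 0 to 1 with a -log10 q of at least 10. In pro-B cells the count for other peaks went from 0 to 1 with the 40000 strongest, and that for regions from 1 to 0 with them or with a -log10 q of at least 10. In small pre-B cells the count for other peaks became 1 with a 5 kb window, and that for regions became 0 with the 40000 strongest. Without the first replicate of each small pre-B group and Mki67-/- pre-pro-B replicate 4, the 3 libraries doubted for depth, the small pre-B counts became 1 for other peaks, 10 for ranks and 3 for regions, and Kif23 had an adjusted p of 0.0718.

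Leaving out 1 library at a time, calls by genotype ran from 0 to 2 for ranks and 0 to 0 for other peaks and for regions. For the first step they ran from 28 to 32, 15 to 16 and 30 to 32, and for the second from 15 to 18, 3 to 3 and 9 to 12. Counts without overlap ran from 2 to 7, 1 to 3 and 0 to 2 in pre-pro-B, 7 to 13, 0 to 1 and 1 to 2 in pro-B, and 3 to 10, 0 to 1 and 1 to 2 in small pre-B cells; 3 libraries overlap less readily than 4. In small pre-B cells the count for ranks was 10 without Mki67-/- replicate 1 and 9 without replicate 3. Summed peaks by genotype differed by -15.5 to -4.083, -5.75 to 2.25 and -9.333 to -0.9167, the positive value without WT pro-B replicate 1, and by stage by -0.75 to 0.5357 and 2.018 to 2.893. The call of the Ndc80 body region in the second step was lost without Mki67-/- small pre-B replicate 3, at an adjusted p of 0.0586. Depth is known here only through the length of the lists, from 77044 to 206148 entries.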

Other observations

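Some further mitosis genes had ends that moved between stages as far as those of the 44 genes. Melk, a kinase of dividing cells, went from a mean rank of 10278 ± 1768 in pre-pro-B to 19260 ± 1380 in pro-B libraries, and Cdc25b, a phosphatase that activates Cdk1, from 4545 ± 683 to 13048 ± 1165 (SD, n = 8 each). Nusap1 and Oip5 share 1 peak, which went from 2422 ± 697 to 980 ± 267. From pro-B to small pre-B cells Esco2, which acetylates cohesin, went from 1235 ± 337 to 3907 ± 851, Kif20b, a kinesin of cytokinesis, from 8307 ± 833 to 5169 ± 548, and Pmf1, a kinetochore subunit, from 3245 ± 1377 to 1090 ± 209. A region inside Mki67 (chr7:135705041-135706515) had a peak in all 8 deposited pre-pro-B lists, in 1 of 8 pro-B lists and in no small pre-B list. The pre-pro-B lists are longer, and among the 40000 strongest peaks it was present in 3 of 8 pre-pro-B and no pro-B libraries, which was not called (adjusted p = 0.258, exact permutation test).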
